A study of Arabidopsis thaliana with 8 samples.

Results

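The regions described here are the 3293 places on chromosomes 1 to 5 of Arabidopsis thaliana where ENAP1 was found on chromatin after ethylene. They are all regions of the authors' joint list for the ethylene samples, out of 7819 regions in the study. The other 4526 belong to the list for air. Binding was measured by chromatin immunoprecipitation and sequencing (ChIP-seq), with an antibody against green fluorescent protein, and the ChIP samples were set against input chromatin that had not been precipitated. Every seedling, air controls included, was of ecotype Col-0 and carried the ein3 eil1 double mutation. Whole seedlings were grown for 3 days in darkness at 24 °C and then held for 4 h in hydrocarbon-free air alone or with 10 ppm ethylene. There were 2 ChIP and 2 input samples for each treatment, 8 in all. Whether the samples of a group were separate cultures, and the construct and promoter behind the tagged ENAP1, are not given in the sources used here.

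Ethylene is a gaseous plant hormone that is sensed by receptors in the endoplasmic reticulum. The receptors keep the membrane protein EIN2 inactive in the absence of the gas, and ethylene releases a fragment of EIN2 that enters the nucleus. There it acts with the transcription factors EIN3 and EIL1, and ENAP1 is a histone-binding protein that associates with EIN2. In dark-grown seedlings the pathway is known for the short, thick hypocotyl and exaggerated apical hook called the triple response.

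The deposited list has 1 entry per region for the 4 ethylene samples together, with no value per library. No test over samples could therefore be made, and every comparison below is a description without replicate error. Each entry has a start, an end, a summit (the base with the highest pile-up of reads), a fold enrichment (the pile-up divided by the local background, after adding 1 to each) and the peak caller's −log10 p. The fold enrichments and p-values are the authors' own, and are used only to describe and rank regions within this list. Read totals per library were not used here. Coordinates are on TAIR10 and counted from 1.

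A typical ENAP1 region was narrow and modestly enriched. Width ranged from 148 to 1381 bp with a median of 237 bp (interquartile range 195 to 297). Fold enrichment ranged from 1.64 to 8.75 with a median of 2.84 (2.42 to 3.45). The −log10 p ranged from 8.43 to 92.2 with a median of 15.5. The lowest −log10 p, 8.43, was shared by 21 regions. Among these were WRKY36, NRT1.1 and AT1G55210, each with a fold enrichment of 2.67, which is not far below the median fold. The lowest fold enrichment of the list, 1.64, lay at AT3G18170, where the local background was 6.73 times the lowest of the list. Fold and p thus order the weak regions differently.

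**Figure D1:**
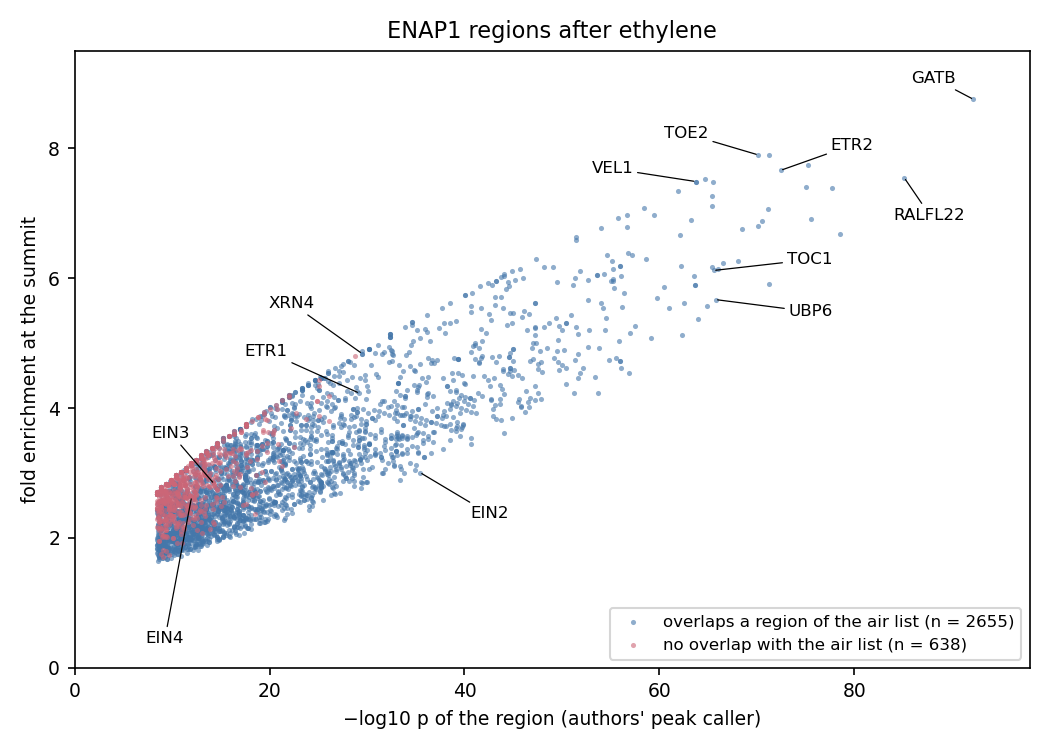
Fold enrichment at the summit (vertical axis, ratio) against −log10 p of the region (horizontal axis), both from the authors' peak caller, for the 3293 ENAP1 regions after ethylene. Each point is 1 region, coloured by whether it overlaps a region of the air list (2655) or not (638), and EIN2 is marked at its region with the highest −log10 p, below the other named genes at like p with a fold of 3.01, while GATB is highest on both axes.

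Each summit was given to the protein-coding gene whose nearer end was closest, whichever end that was, and a gene that received at least 1 summit is called a carrier. By this rule 3149 of 27444 nuclear protein-coding genes, or 11.5%, were carriers after ethylene. That share is the background for every group of genes below. The corresponding share in the longer air list was 15.3%. Of the carriers, 3007 had 1 summit, 140 had 2 and 2 had 3. Carriers were spread evenly over the chromosomes, from 11.0% of genes on chromosome 4 to 12.0% on chromosome 2.

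The genes with 3 summits were AT5G11000 and XBAT31 (AT2G28840), which belongs to a family of ubiquitin ligases. At XBAT31 the summits were 1312 bp outside, 164 bp inside and 136 bp outside the nearer gene end, with fold enrichments of 4.28, 1.92 and 2.85. At AT5G11000 they were 141 bp outside, 578 bp inside and 339 bp inside, with 2.73, 3.35 and 2.43. In both genes 2 of the 3 regions overlapped a region of the air list.

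The 20 regions with the highest fold enrichment lay mostly at the very edge of a gene. Of them, 17 had the summit inside the nearest gene, 13 within 100 bp and 19 within 500 bp of its end, and all 20 overlapped an air region. Over the whole list, 73.8% of summits were inside the nearest gene, 36.4% within 100 bp and 86.3% within 500 bp of its end. Of all regions 80.6% overlapped an air region. Only 10 of the 20 nearest genes have a symbol in RefSeq. The local background at these summits was 1.05 to 1.44 times the lowest of the list.

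The first of them was GATB (AT1G48520, chromosome 1, 17939901 to 17940312), which encodes a subunit of an amidotransferase that makes glutaminyl-tRNA in organelles. Its fold enrichment was 8.75, its summit was 21 bp inside the gene, and it also led the list by −log10 p. TOE2 (AT5G60120, chromosome 5, 24207559 to 24207936), an AP2-type repressor of flowering, had a fold enrichment of 7.90 and a summit 62 bp inside. The ethylene receptor gene ETR2 had 7.66. RALFL22 (AT3G05490, chromosome 3, 1590499 to 1590808), which encodes a secreted peptide hormone of the RALF kind, had 7.54 with the summit 465 bp outside the gene, and was second by −log10 p.

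VEL1 (AT4G30200, chromosome 4, 14790275 to 14790580), a VIN3-like PHD finger protein that acts with Polycomb in silencing, had a fold enrichment of 7.49 and a summit 90 bp inside. AT1G08910, which RefSeq also lists as PIAL1, a SUMO ligase, had 7.48. NAC083 (AT5G13180), also named VNI2, a NAC factor that represses xylem vessel differentiation, had 7.34 with the summit 315 bp outside the gene.

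The remaining symbols among the 20 were APD1 (7.52), a gene named for aberrant pollen development, and NIG (7.39), a GTPase that interacts with a viral nuclear shuttle protein. TPS10 (AT1G60140), of the trehalose phosphate synthase family, had 7.26 and the deepest summit of the 20, at 979 bp inside the gene. EXO70G2, an exocyst subunit, had 7.06 with the summit 269 bp outside. The others, without a symbol, were AT1G48200 (7.90), AT1G19430 (7.75), AT1G76630 (7.49), AT4G37440 (7.40), AT1G65000 (7.11), AT1G08750 (7.08), AT2G22426 (6.96), AT5G38220 (6.96) and AT1G44790 (6.93).

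Summits were concentrated just inside gene ends. The median distance to the nearest end was 134 bp (interquartile range 73 to 280), and 2125 summits, or 64.5% (exact 95% interval 62.9 to 66.2), lay within 200 bp of it. Counted by side, 2252 (68.4%, 66.8 to 70.0) were inside the nearest gene and at most 500 bp from its end. A further 178 (5.41%) were deeper inside that gene, 710 (21.6%) were outside within 1000 bp, and 153 (4.65%) were farther out. These intervals, like all below, cover counting error only. The gene table has no strand, so the start of a gene could not be told from its end.

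**Figure D2:**
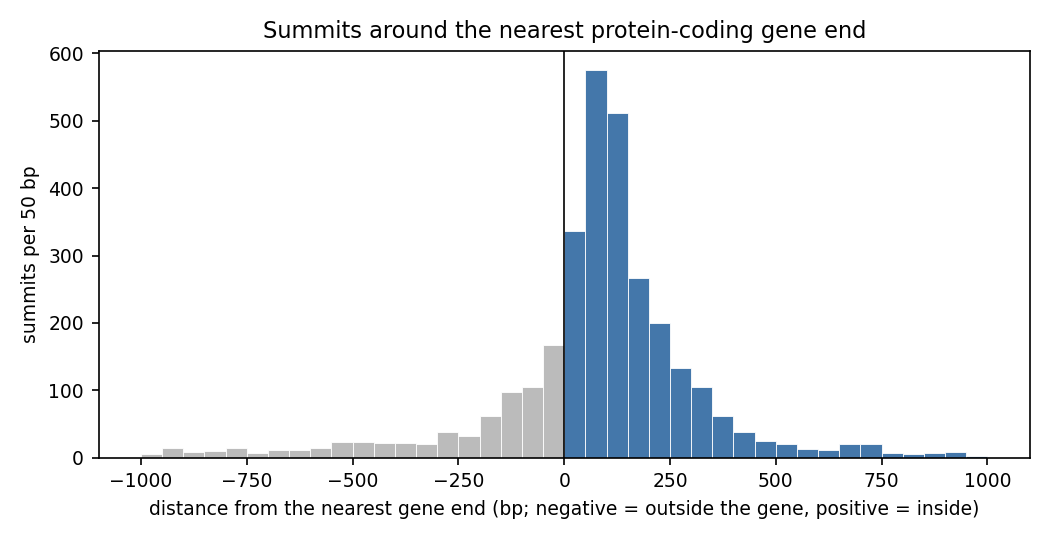
Number of summits per 50 bp (vertical axis) by signed distance in bp from the nearest protein-coding gene end (horizontal axis), for the ethylene list, from 1000 bp outside (grey, negative) to 1000 bp inside (blue, positive). The tallest bar, 575 summits, stands at 50 to 100 bp inside the gene, and 168 summits stand in the first 50 bp outside.

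Neighbouring genes limit how firmly a summit can be given to 1 gene. The end of another protein-coding gene lay within 500 bp of 1024 summits (31.1%) and within 200 bp of 394 (12.0%). For 465 (14.1%) the next gene was at most 100 bp farther than the nearest one, and 5 summits were equally far from 2 genes. Besides, 191 summits (5.80%) lay in an annotated noncoding gene.

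Fold enrichment hardly varied with distance to the gene end, and it was lower where the local background was higher. Across the 3293 regions fold enrichment had a Pearson r of 0.03 and a Spearman rho of -0.01 with distance to the gene end. With local background r was -0.55 and rho -0.63, and with width r was 0.37 and rho 0.40. The background enters the calculation of the fold, so the points share a term, and no p is given. Going up the quartiles of fold, the share of summits inside the nearest gene was 85.3%, 71.0%, 67.9% and 71.0%. The median local background of those quartiles was 49.8, 27.2, 22.3 and 20.9 reads. Its part in the position of the summits was not tested.

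Most regions had a counterpart in the air list. Of 3293 regions 2655 overlapped one by at least 1 bp, and over these the fold enrichments of both lists had a Pearson r of 0.62 and a Spearman rho of 0.55. Among genes, 2577 of the 3149 carriers (81.8%, 80.4 to 83.2) were carriers in the air list too, which is 61.3% of the 4204 air carriers. The remaining 572 genes were carriers in the ethylene list only. The lists were called separately and on their own scales, so fold enrichments in air are given beside those after ethylene without a comparison. For a gene, the air value is that of its strongest air region, whether or not that region overlaps the one after ethylene.

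Long genes were carriers more often than short ones. In quartiles of gene length the share was 5.03% (4.52 to 5.57) for genes of up to 1323 bp, 10.2% from 1324 to 2078 bp, 14.8% from 2079 to 3030 bp and 15.9% (15.0 to 16.8) above that. The air list had the same order, with 6.77% in the shortest quartile and 21.1% in the longest. Carriers had a median length of 2545 bp against 2078 bp for all genes. Genes with a RefSeq symbol, which make up most of the groups below, were carriers in 13.1% of cases (12.5 to 13.8) and genes without one in 10.5% (10.0 to 10.9), and their median lengths were 2487 and 1835 bp. The part of length in the shares below was not tested. Median lengths are given beside some of the groups of short or long genes, not beside all.

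**Figure D3:**
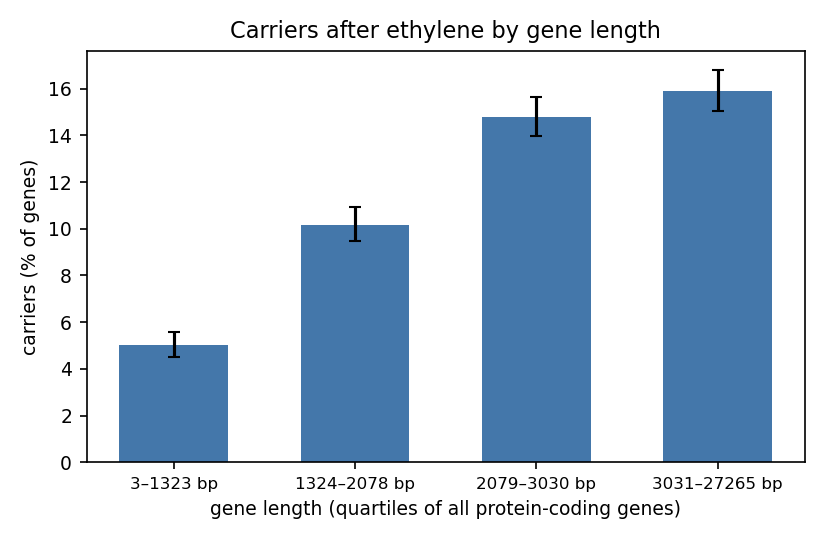
Share of protein-coding genes that were carriers after ethylene (vertical axis, percent) in quartiles of gene length (horizontal axis, bp). Bars show the share and lines the exact 95% interval for counting error, with 5.03% in the shortest and 15.9% in the longest quartile.

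Within the ethylene pathway, ENAP1 lay at most receptor genes. Of the 5 receptor genes, ETR2, ETR1, EIN4 and ERS2 were carriers after ethylene (80.0%, 28.4 to 99.5) and ERS1 was not. ETR2 (AT3G23150, chromosome 3, 8254526 to 8254878) had rank 5 of 3293 by fold at 7.66, with the summit 137 bp inside the gene, and its air region had 9.79. ETR1 (AT1G66340, chromosome 1, 24734122 to 24734355) had 4.23 and rank 365, with the summit 71 bp inside, and 8.64 in air.

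The other receptor genes stood below the median of the list by fold. EIN4 (AT3G04580, chromosome 3, 1238376 to 1238553) had a fold enrichment of 2.63 with the summit 172 bp inside, and 5.19 in air. The next gene, AT3G04590, ended 395 bp from that summit. ERS2 (AT1G04310, chromosome 1, 1155048 to 1155233) had 2.38 and the summit 434 bp inside, with AT1G04300 at 507 bp, and had no air region. The receptor genes thus ran from rank 5 to rank 2508.

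Of 15 genes that act after the receptors, EIN2, EIN3, EIL1 and XRN4 were carriers (26.7%, 7.79 to 55.1), where 2 were in air. EIN2 (AT5G03280), the central transducer of the pathway, had 2 regions. At the first (chromosome 5, 793377 to 793820) the summit was 254 bp outside the gene and 316 bp from IDH-V, the other gene at that site. The pile-up there, 175 reads, was the highest of the whole list, and the local background was 4.07 times the lowest. Its fold enrichment was 3.01, rank 1372, although its −log10 p was rank 345, and the air region had 12.6.

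The other region at EIN2 (chromosome 5, 791106 to 792486) was the widest of the list at 1381 bp. Its summit lay 1760 bp inside the gene, with a fold enrichment of 2.14, a local background 3.96 times the lowest, and no overlap with the air list. The next widest region, 1014 bp, lay at AT5G25280.

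EIN3 and EIL1, which are mutated in all these seedlings, had 1 region each. At EIN3 (AT3G20770, chromosome 3, 7262355 to 7262581) the fold enrichment was 2.83, close to the list median, and the summit 944 bp inside the gene. At EIL1 (AT2G27050, chromosome 2, 11545722 to 11545924) it was 2.64, with the summit 153 bp inside and a −log10 p at rank 3095. Neither gene had an air region. XRN4 (AT1G54490, chromosome 1, 20349959 to 20350371), an exoribonuclease also known as EIN5, had 4.84 with the summit 12 bp outside, and 8.82 in air.

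Of 19 ethylene synthesis genes 2 (10.5%, 1.30 to 33.1) were carriers, a share close to that of all genes, namely MAT3, which makes S-adenosylmethionine (fold 3.51, air 6.24), and ACS6, an ACC synthase gene (3.05, with no air region). None of 10 growth genes under ethylene control was a carrier, which allows a share of up to 30.8%, while EDF3, ARGOS and ARL were carriers in air. EDF3 had an ethylene summit near its end, but the summit was closer to another gene.

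Across 25 lists of 444 genes in all, 17 had a share above the 11.5% of all genes and 8 a share below it. Fewer stood above the 13.1% of genes with a RefSeq symbol. Most lists have fewer than 30 genes, and their intervals are wide.

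**Figure D4:**
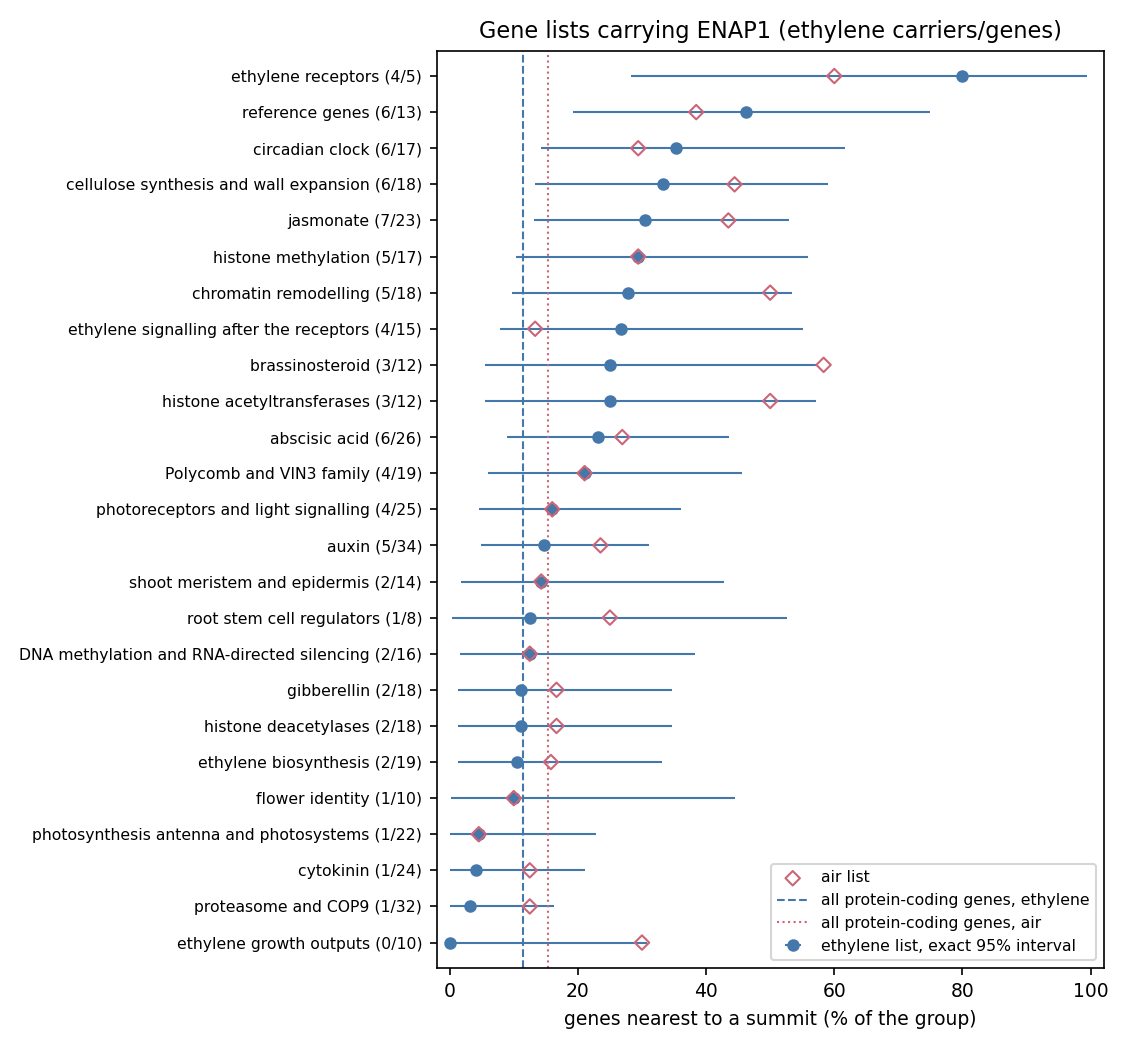
Share of the genes of each list that were carriers (horizontal axis, percent), with 1 row per list and the number of carriers and genes in brackets. Filled circles with lines are the ethylene list with exact 95% intervals, open diamonds the air list, and the vertical lines all protein-coding genes (11.5% ethylene, 15.3% air), and the lists run from ethylene receptors at 80.0% to ethylene growth outputs at 0.

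Genes of the circadian clock were carriers in 6 of 17 cases (35.3%, 14.2 to 61.7), and 5 were in air. TOC1, which represses the morning genes of the clock, had the highest fold of the list at 6.12 (chromosome 5, summit 178 bp inside, air 15.9). GI, which stabilises ZTL, had 3.37. ZTL, the F-box protein that degrades TOC1, had 2.12 over a background 5.02 times the lowest. LKP2, a relative of ZTL, had 2.62 and no air region.

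Reference genes for expression studies included 6 carriers of 13 (46.2%, 19.2 to 74.9). The actin genes ACT8 and ACT2 had fold enrichments of 5.38 and 4.33. PP2AA3, a phosphatase subunit, had 4.28 and GAPC1, a glycolytic dehydrogenase, 3.51. The summits of these 4 genes lay between 245 bp inside and 12 bp outside.

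Genes of cell wall synthesis and expansion had 6 carriers of 18 (33.3%, 13.3 to 59.0), and 8 in air. COB, a surface protein needed for oriented cell expansion, had 4.43, and its air region, at 4.39, was a separate one. XTH5, an enzyme that remodels xyloglucan, had 3.26. CESA1, a cellulose synthase subunit, had 2.96 with the summit 172 bp inside. THE1, a receptor kinase that monitors the wall, had 2.71 with the summit 1432 bp outside. In the xyloglucan family as a whole 3 of 33 genes were carriers (9.09%), and of 30 expansin genes EXPA4 was the only one, with 5.04 and a summit 1237 bp outside the gene.

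Of 23 jasmonate genes 7 were carriers (30.4%, 13.2 to 52.9), and 10 in air. MYC4, a transcription factor that drives jasmonate responses, had 4.64. Its relative MYC3 was also a carrier, at 1.90 over a background 5.36 times the lowest. JAZ2 and JAZ6, repressors of the MYC factors, had 4.03 and 2.83, with summits 461 and 331 bp outside. JAR1, which makes the active hormone conjugate, had 3.68. Of 12 JAZ genes 4 were carriers (33.3%, 9.92 to 65.1).

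In the abscisic acid list 6 of 26 genes were carriers (23.1%, 8.97 to 43.6). The receptor genes PYL5 and PYL8 were highest, with 5.62 (summit 510 bp outside) and 5.03 (238 bp inside). CYP707A1 and CYP707A3, which break the hormone down, had 3.29 and 2.08. ABI1 (2.49) and ABA2 (1.77, over a background 4.69 times the lowest) were carriers too.

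In the brassinosteroid list 3 of 12 genes were carriers and 7 were in air. They were the kinase genes BIN2 (3.42) and BAK1 (3.09) and the inactivating enzyme gene BAS1 (3.27). Of 34 auxin genes 5 were carriers (14.7%), and only 2 had a summit from 1000 bp outside to 500 bp inside an end. ARF8 and ARF6, auxin response factors that act together in elongation, had 4.81 and 4.39, while the transport genes PIN4 and LAX3 had 3.09 and 3.44 with summits 1685 and 919 bp inside. The Aux/IAA repressors, counted apart, had 6 carriers of 29 (20.7%), led by IAA9 at 5.14.

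Gibberellin had 2 of 18, the DELLA gene RGA (5.97, summit 1425 bp outside) and the receptor gene GID1B (3.03). Cytokinin had 1 of 24 (4.17%, 0.105 to 21.1), the response regulator gene ARR4 (3.39). Light signalling had 4 of 25 (16.0%, median gene 4011 bp). PIF4 had its summit 1209 bp outside and a fold rank of 424. PIF5 had 1.92 and HY5 1.90, over backgrounds 4.51 and 4.40 times the lowest. The photoreceptor gene PHOT1 had 2.75 with the summit 3174 bp inside.

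The 6 lists of chromatin regulators had shares from 11.1% to 29.4%, and the interval of each included the 11.5% of all genes. Histone methylation enzymes had 5 of 17 (29.4%, 10.3 to 56.0, median gene 5840 bp), led by the methyltransferase gene ATX5 at 5.29, followed by the demethylase gene LDL2 at 2.79 and the methyltransferase genes SUVH4 at 3.02 and SDG2 at 2.64. Chromatin remodelling had 5 of 18 (27.8%, median gene 4064.5 bp) and 9 in air. Its strongest carrier was SWP73B, a SWI/SNF subunit, at 3.92. SEF, ARP5 and SWI3B followed over backgrounds of 4.74, 3.65 and 4.46 times the lowest, with fold enrichments of at most 2.27.

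For Polycomb and the VIN3 family the count was 4 of 19 (21.1%, median gene 3929 bp). They were VEL1, VRN5 (3.20), BMI1A (3.16) and VRN1 (2.24). BMI1A had no air region. Histone acetyltransferases had 3 of 12 (25%, 5.49 to 57.2, median gene 5437 bp), HAM2 (2.28), HAG2 (2.73) and HAF1 (2.76), and 6 in air. Histone deacetylases had 2 of 18 (11.1%, 1.38 to 34.7), HDA15 (3.32) and HDA9 (3.35), the second without an air region. DNA methylation had 2 of 16 (12.5%, 1.55 to 38.3, median gene 6586.5 bp). They were the demethylase gene DME (5.20) and the methyltransferase gene DRM2 (4.23). The 22 histone genes, which are short at a median of 1080.5 bp, had none by nearest end, but 4 (18.2%) had an end in the window from 1000 bp outside to 500 bp inside, where 15.9% of all genes did.

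Of 10 flower identity genes, which stand for an organ absent from these seedlings, the region nearest to SUP counted as a carrier, but its summit was 2333 bp away. CLV3 and CLV1 of the shoot meristem had 4.91 and 3.00, with summits 1073 and 560 bp outside, and of the root list SCR had 3.18. Of 22 genes of the photosystems and antennae PORC, an enzyme of chlorophyll synthesis, was the only carrier (4.55%, 0.115 to 22.8). Of 32 genes of the proteasome and the COP9 complex the proteasome subunit gene PBC1 was the only one, with 4.26.

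Gene families were counted in the same way, as far as RefSeq names their members. Among 46 families with 2526 genes, 25 had a share above that of all genes and 21 below. Fewer stood above the 13.1% of genes with a RefSeq symbol. Heat shock proteins (12.9%) and autophagy proteins (12.5%) are examples of families between these 2 shares. A gene said to lead a family had both its highest −log10 p and its highest fold.

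**Figure D5:**
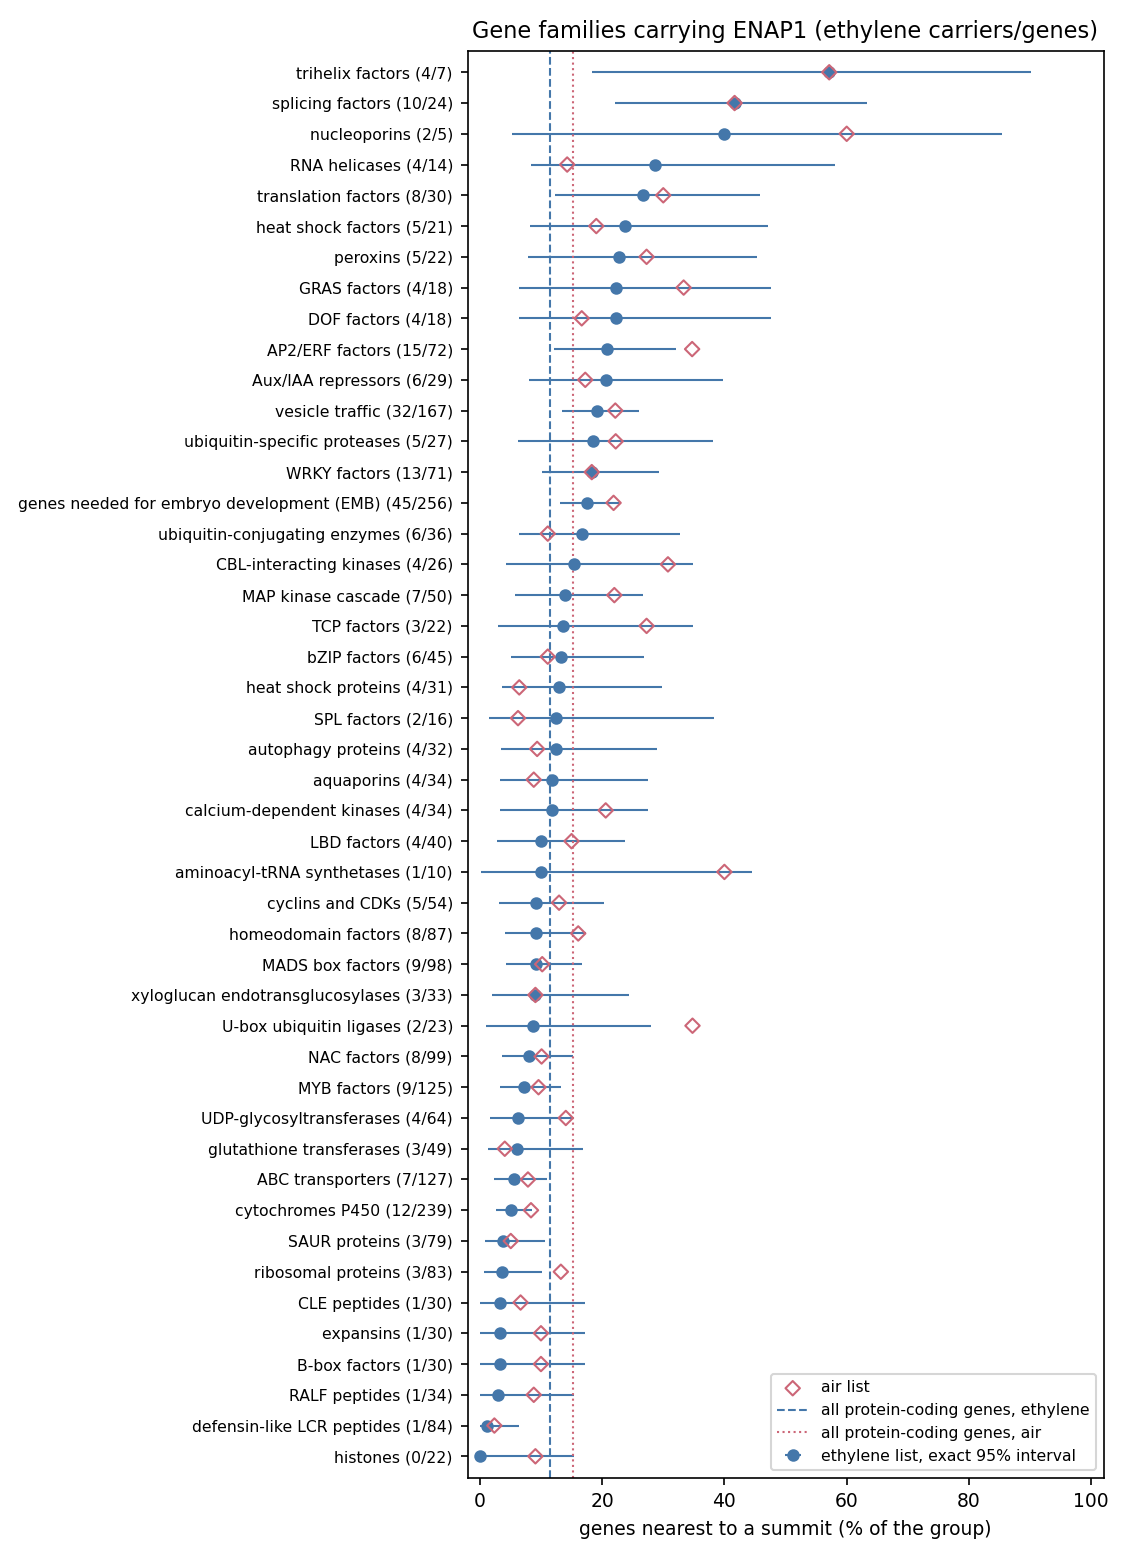
Share of the genes of each family that were carriers (horizontal axis, percent), with 1 row per family and the number of carriers and genes in brackets. Filled circles with lines are the ethylene list with exact 95% intervals, open diamonds the air list, and the vertical lines all protein-coding genes, and the shares run from trihelix factors at 57.1% to histones at 0.

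Splicing factors had 10 carriers of 24 (41.7%, 22.1 to 63.4), as many as in air, with 7 genes in both. U2AF35B, which helps to recognise the end of the intron, had a fold enrichment of 4.61. The SR proteins SR34a, SCL33 and RSZ21 had 4.46, 3.92 and 3.38, and SCL33 had no air region. All 10 summits lay within 500 bp of a gene end, as did 86.3% of all summits of the list.

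Translation factors had 8 of 30 (26.7%, 12.3 to 45.9). First by p were the eIF3 subunit genes EIF3E (4.37, summit 3 bp inside, with INO80 at 166 bp) and TIF3H1 (3.25), the cap-binding protein gene eIF4E3 (3.25) and EIF2 ALPHA (2.42). RNA helicases had 4 of 14 (28.6%), with RH36 first by p at a fold of 3.20 and AT3G09720 highest by fold at 4.35. Aminoacyl-tRNA synthetases had 1 of 10 (10%), EDD1 at 4.15, and 4 in air. Ribosomal proteins had 3 of 83 (3.61%, 0.752 to 10.2, median gene 1698 bp) and 11 in air. They were RPL16A (3.05), RPS15AD (3.44) and AT3G23390 (3.42).

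Vesicle traffic had 32 carriers of 167 (19.2%, 13.5 to 26.0), of which 20 had a fold at or above the list median. Of their 33 summits 32 lay within 500 bp of a gene end, where 86.3% of all summits did. EXO70 subunits of the exocyst, which tethers vesicles to the plasma membrane, had 6 of 23, with EXO70G2 (7.06), EXO70F1 (5.96) and EXO70D3 (4.72) first by p. VPS15, which acts with a lipid kinase in vacuolar sorting, had 5.78. Syntaxins had 6 of 25, VPS proteins 7 of 39, RAB GTPases 7 of 46 and VAMP proteins 3 of 12. The intervals of these branches, EXO70 included, all held the 11.5% of all genes, and the branches were picked after their values were seen.

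Genes that RefSeq names for being needed in embryo development had 45 carriers of 256 (17.6%, 13.1 to 22.8, median gene 3110.5 bp), and 56 in air. First by p were EMB2752 (6.04), EMB976 (6.35), SCE1 (6.14), which is the SUMO-conjugating enzyme, and EMB2786 (4.56). Peroxins, which build peroxisomes, had 5 of 22, led by PEX11C at 3.30, and autophagy proteins 4 of 32, led by APG7 at 6.07. Ubiquitin-specific proteases had 5 of 27 (median gene 4249 bp), with UBP6 at 5.67, and ubiquitin-conjugating enzymes 6 of 36, with UBC32 at 3.89. U-box ligases had 2 of 23 after ethylene and 8 in air.

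Transcription factor families ranged widely. AP2/ERF factors had 15 of 72 (20.8%, 12.2 to 32.0) and 25 in air. After TOE2 came SMZ (5.56) and RAP2.7 (3.57), which belong to the same group of flowering repressors, in which 3 of 5 genes were carriers. The cytokinin response factors had 4 of 12, with CRF2 at 3.89 and the summit of that region 2950 bp outside. Another summit lay in the window from 1000 bp outside to 500 bp inside an end of CRF2. WRKY factors had 13 of 71 (18.3%), as many as in air, with WRKY48 (4.39), WRKY47 (3.13), WRKY15 (2.45) and WRKY27 (3.47) strongest by p.

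Trihelix factors had 4 of 7 (57.1%, 18.4 to 90.1), namely ASIL1 (2.86), GT2 (4.35), ASIL2 (2.28) and AT5G28300 (2.46). Heat shock factors had 5 of 21 (23.8%), with HSF1 first by p at 2.43 and HSF4 highest by fold at 3.21, and GRAS and DOF factors 4 of 18 each. Homeodomain factors had 8 of 87 (9.20%). HDG genes, which act in the epidermis, had 4 of 12 (33.3%, 9.92 to 65.1), with HDG11 (5.77), HDG12 (4.95) and HDG2 (3.74). KNAT genes had 3 of 7 (42.9%, 9.90 to 81.6). No WOX gene of 14 was a carrier (0 to 23.2%), though WOX5 had an end in the window from 1000 bp outside to 500 bp inside. The intervals of these branches all included the 11.5% of all genes. The branches were picked after their values were seen.

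MADS box factors had 9 of 98 (9.18%), with GOA first by p at a fold of 4.46 and AGL31 highest by fold at 4.82. NAC factors had 8 of 99 (8.08%), led by NAC083. MYB factors had 9 of 125 (7.20%, 3.35 to 13.2), with MYB112 first by p at 3.12 and MYB70 highest by fold at 3.43. LBD factors had 4 of 40 with fold enrichments of 4.09 to 4.46, all above the list median. Among bZIP factors 6 of 45 were carriers, with bZIP19, a sensor of zinc status, at 5.24 and BZIP17 and BZIP28, which respond to stress in the endoplasmic reticulum, at 4.22 and 2.27.

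Cytochromes P450 had 12 of 239 (5.02%, 2.62 to 8.61) with a median gene of 2076 bp, close to that of all genes. ABC transporters had 7 of 127 (5.51%, 2.24 to 11.0), with a median gene of 4610 bp. Of them 15 (11.8%) had an end in the window from 1000 bp outside to 500 bp inside, where 15.9% of all genes did. UDP-glycosyltransferases had 4 of 64, led by UGT75B1 at 4.59, and glutathione transferases 3 of 49, led by GSTU5 at 3.16. In all 4 families the air share was below the 15.3% of all genes too.

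SAUR proteins, which are induced by auxin, had 3 of 79 (3.80%, 0.790 to 10.7, median gene 813 bp). CLE peptides had 1 of 30, CLE14 at 2.86, and LCR peptides 1 of 84 (1.19%, 0.0301 to 6.46, median gene 602.5 bp), LCR60 at 3.41. RALF peptides had 1 of 34 (2.94%, median gene 575 bp), and that gene was RALFL22, at rank 6 of the whole list by fold. A low share of a family was thus found together with 1 of the strongest regions.

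The MAP kinase cascade had 7 of 50 (14.0%), led by MPK1 at 4.48, CBL-interacting kinases 4 of 26, with SOS2 first by p at 2.86 and SIP4 highest by fold at 3.29, and calcium-dependent kinases 4 of 34, led by CDPK1 at 4.04. Aquaporins had 4 of 34, with TIP2 at 4.46 and a summit 2502 bp outside the gene. Cyclins and their kinases had 5 of 54 (9.26%), with CDKE;1 first by p at 3.10 and CDKD1;3 highest by fold at 3.51. TCP factors had 3 of 22, led by AT5G23280, which RefSeq also lists as TCP7, at 5.08, and 6 in air.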

How the data were processed

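ChIP-seq was made in 2 ChIP and 2 input samples per treatment. The aligner was BWA, the genome TAIR10 and the peak caller MACS2 version 2.1.0.20150603, per the submitters' processing notes. The authors deposited 1 joint list per treatment, named optimal by a rule not given in the sources used here. The deposited fold enrichment is a ratio of pile-up to local background, and the −log10 p and −log10 q values, also deposited, are the peak caller's. The deposited score and bp positions were read as they stand, and the score was not used further.

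Local background and pile-up were solved from the deposited fold and p. The solution was tested on data simulated with the same formula, so whether the deposited values follow that formula was not tested. Summits were assigned to the nearest of both ends of the 27444 nuclear protein-coding genes of the RefSeq table of assembly TAIR10.1, which gives names and gene ends but no strand. As a check of positions, summits 0 to 200 bp inside a gene end made up 51.4%, against 18.2% and 18.3% after shifts of 200 bp. A tie went to the gene holding the summit. Shares carry exact Clopper-Pearson 95% intervals.

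The regions and gene lists were chosen with earlier results of these data known. Lists and families were corrected after a first count of carriers, by removing wrong symbol matches, dropping families with incomplete names and adding others, and the smaller branches were picked after their values were seen. No list was tested. Named were the nearest genes of the 20 regions highest by fold, up to 4 carriers per list or family by −log10 p, every carrier of the ethylene receptors and signalling list, and genes with 3 summits. Genes named beyond that (the lowest and widest regions, single carriers, carriers in air only, MYC3, INO80, ABI1, ABA2, WOX5 and carriers named as highest by fold) were chosen after their values were seen. Python 3.11.15, pandas 2.3.3, scipy 1.17.1 and matplotlib 3.10.9 were used. Alternatives varied the assignment, the distance limit, the threshold, the summit, the background and the overlap. Pile-up tracks and sequences were not used here.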

Additional observations from a re-analysis of the deposited data

How the results depend on the processing

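The number of carriers was 1623 when only regions at or above the median −log10 q were kept, in place of 3149. It stayed within 1.5 times under the other 5 settings: 4356 genes with an end in the window from 1000 bp outside to 500 bp inside, 2983 and 2782 with limits of 1000 and 500 bp, 3147 with the region midpoint and 3045 without the 115 regions at 5 or more times the lowest background. The share of regions that overlap the air list was 76.5% with at least 50% of both regions overlapping and 94.4% among regions at or above the median −log10 q, in place of 80.6%. The share inside the nearest gene within 500 bp of its end was 68.1% to 69.6% in 3 settings. Of 71 lists and families, 28 stayed above and 24 below the share of all genes in all 5 settings, and 19 crossed it. Among these were light signalling and histone deacetylases in 3 settings, and auxin, shoot meristem, aquaporins and calcium-dependent kinases in 2. No paired analysis was possible because the replicates of a treatment were merged into a single list, and for that reason no replicate could be left out either. Motif shares were not run, as no sequence was used. A gene that is not a carrier was not shown to be unbound.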
